A study of Mus musculus with 24 samples.

Results

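Hearts of septic mice given β-nicotinamide mononucleotide (β-NMN) were compared with hearts of septic mice given saline, over all genes. All hearts of mice subjected to cecal ligation and puncture (CLP) were taken, 3 from vehicle and 3 from β-NMN-treated animals, which makes 6 of the 24 samples of the series. CLP opens the ligated cecum to the peritoneum and gives a polymicrobial peritonitis with septic shock. The animals were male C57BL/6 mice of 7 to 12 weeks, all operated on, and right after surgery they received β-NMN at 185 mg/kg or saline (vehicle) into the peritoneum. A small piece of each heart was kept in RNAlater 24 h after CLP and its poly(A) RNA was sequenced. No sham-operated heart was used here, so the comparison holds within septic animals alone, and the part of the heart that each piece came from is not given. The source labels of these hearts name thioglycollate peritonitis, while titles, tissue and the methods give CLP. Number 3 stands in the titles of 2 β-NMN hearts, and the heart of the mouse whose lung carries number 2 is called β-NMN heart 2 below.

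β-NMN is a direct precursor of NAD+, the coenzyme that carries electrons to the respiratory chain and is consumed by sirtuins, PARPs and the NAD glycohydrolases CD38 and BST1. In the septic heart, endothelial cells, resident macrophages, fibroblasts and cardiomyocytes answer circulating bacterial products through NF-κB and AP-1, release cytokines of the IL-6 family and chemokines, and display selectins that slow passing leukocytes. IL-6 and LIF signal through gp130 to STAT3, which turns on the feedback inhibitor SOCS3, and contraction, fatty acid oxidation and oxidative phosphorylation are known to decline in parallel.

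Total counts per heart lay between 36308516 and 66607729 in the vehicle group and between 27319513 and 68523239 in the β-NMN group. No 2 libraries agreed within sampling noise. Vehicle heart 2 stood apart from the other hearts. Its log2 CPM (CPM, reads of a gene relative to the TMM-scaled library total) differed from the mean of the other hearts with an SD over genes of 0.99, against 0.39 to 0.58 for the rest. Mitochondrially encoded genes took 12.9% of its reads, against 18.2 to 22.7%, and its TMM factor was 1.23, against 0.942 to 0.984. The shared cardiomyocyte markers summed to 48700 CPM in this library and to between 71200 and 80900 CPM in the others, and were thus high in every heart, as the tissue label has it. Thymocyte markers were near 0 in every heart, with Rag2 and Dntt at 0 reads, and the skeletal muscle myosin gene Myh1 was at 0. Values without vehicle heart 2 are therefore given beside each list median and each log2 difference that this heart moved by more than 1.5 times.

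The hearts differed first in the transcripts of the atria. Myl7, the atrial regulatory myosin light chain (chr11:5896637-5898782 in mm10, minus strand), stood at 5.07, 2110 and 192 CPM in vehicle hearts 1, 2 and 3 and at 43.2, 16.3 and 0.14 CPM in β-NMN hearts 1, 2 and 3. Myl4, the atrial essential light chain, gave 8.37, 2710 and 238 CPM against 48.8, 21 and 1.24 CPM in the same order. Sln, which encodes sarcolipin, the atrial inhibitor of the calcium pump SERCA, gave 1.34, 804 and 121 CPM against 21.5, 5.51 and 0.062 CPM. For all of these genes vehicle hearts 2 and 3 were above every β-NMN heart and vehicle heart 1 lay among the β-NMN hearts, so the groups overlapped. Nppa, the gene of atrial natriuretic peptide, stood at 16.3, 4010 and 619 CPM in the vehicle hearts and at 101, 82.9 and 42 CPM in the β-NMN hearts, with vehicle heart 1 the lowest of all hearts. Bmp10, a growth factor of the atria, had 2, 14848 and 2625 reads in the vehicle hearts and 3, 0 and 2 reads in the β-NMN hearts.

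Atrial transcripts varied widely within both treatment groups, which overlapped. The mean log2 CPM of Myl7, Myl4, Sln and Nppa was 7.14 ± 4.32 (SD, n = 3) in the vehicle group and 3.28 ± 2.91 (SD, n = 3) in the β-NMN group, a difference of -3.86, with an exact two-sided permutation p = 0.3, where 0.1 is the smallest p that 3 hearts against 3 allow, so the test could not have passed 0.05 and does not show that the groups were alike. In edgeR's quasi-likelihood test with Benjamini-Hochberg adjustment over all genes tested, Myl7 differed by -5.28 on the log2 scale (SE 2.31, adjusted p = 0.435), and by -2.34 without vehicle heart 2, and against vehicle heart 1 alone it was higher in the β-NMN hearts, by 1.94. The 5 ventricular markers, Myl2 and Myl3 among them, went the other way: they summed to 7530, 1830 and 7530 CPM in the vehicle hearts and to 9150, 9620 and 8260 CPM in the β-NMN hearts. Vehicle heart 2 thus held the highest atrial and the lowest ventricular sum, with mesothelial markers at 121 CPM, against 7.82 to 16.8 CPM in the other hearts, and B cell markers at 85.1 CPM, against 1.2 to 5.01 CPM. The atrial sum of vehicle heart 1, 76.3 CPM, lay within the 68.5 to 278 CPM of the β-NMN hearts.

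**Figure D1:**
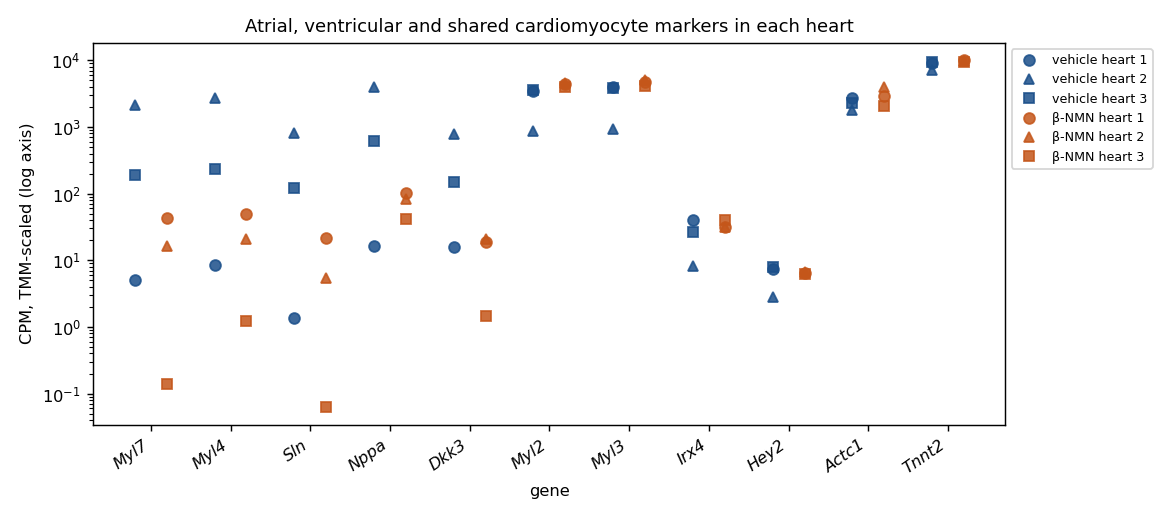
Level of atrial markers (Myl7 to Dkk3), ventricular markers (Myl2 to Hey2) and shared cardiomyocyte markers (Actc1, Tnnt2) in each heart, in TMM-scaled CPM on a log axis; each point is 1 heart, vehicle in blue and β-NMN in orange. Myl7 spans from 0.14 CPM in β-NMN heart 3 to 2110 CPM in vehicle heart 2, which also has the lowest Myl2 and Myl3.

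Across all hearts no gene passed an adjusted p of 0.05, and the genes with small p were more often lower than higher in the β-NMN hearts. Of 16245 genes tested, 0 were called by edgeR (0%), with a lowest adjusted p of 0.115, while limma-voom with quality weights called 3 and DESeq2 called 262 of the 14958 genes that it tested. At an unadjusted p below 0.05, 1239 genes were lower (7.63%) and 598 higher (3.68%). In 1871 genes (11.5%) every β-NMN heart lay below every vehicle heart, and in 1881 (11.6%) above. The median log2 difference of all genes was -0.01. Below, "lower" and "higher" refer to the β-NMN hearts, and the adjusted p of each log2 difference on all hearts is 0.435 unless another is stated, so none of these differences passed edgeR's adjusted test on all hearts. DESeq2 did call 70 of the 128 genes chosen for naming on all hearts, H19, Tnfaip6, Il6 and Socs3 among them (adjusted p = 8.9e-19, 2.58e-08, 2.8e-09 and 1.11e-05), so the call depends on the tool.

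With the atrial score of each heart as a covariate, 335 genes were lower and 193 higher at an unadjusted p below 0.05, and again 0 passed the adjusted test. Among the lists described below, the medians were then -1.03 for chemokines (-1.41 without the covariate), -0.63 for cytokines (-0.68), -0.60 for endothelial adhesion (-0.90), -0.51 for immediate early genes (-0.86) and -0.23 for NF-κB subunits and feedback (-0.52). They were -0.64 for hyaluronan genes (-1.05), -0.64 for metalloproteinases (-0.95), -0.32 for complement (-0.65), -0.79 for the interferon response (-0.56), 0.26 for the sarcomere (0.37) and 0.13 for β-oxidation (0.36). Other medians turned in sign with the covariate, from 0.14 to -0.11 for mitochondrially encoded genes, from -0.23 to 0.24 for wall stress and fetal genes, from -0.08 to 0.02 for MHC genes and from -0.07 to 0.04 for cytosolic ribosomal proteins. The score itself was highest in vehicle heart 2, at 11.02, against 0 to 7.92 in the other hearts.

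Without vehicle heart 2 the spread between hearts shrank, from a biological coefficient of variation of 0.293 to 0.189, and 5 of 16894 genes (0.0296%) were called, all lower in the β-NMN hearts. At an unadjusted p below 0.05 there were then 1003 lower (5.94%) and 745 higher genes (4.41%). Of the 1239 lower and 598 higher genes found with all hearts, 843 and 444 were again below 0.05 in the same direction. On these 5 hearts DESeq2 called 273 genes lower (1.91%) and 137 higher (0.96%) of 14273 tested. The 5 genes that fell in the edgeR fit, with the same adjusted p of 0.0168 for the first 4, were H19, a maternally expressed imprinted noncoding RNA, by 1.71 on the log2 scale (SE 0.12), Fam122b, an X-linked relative of an inhibitor of protein phosphatase 2A, by 1.63 (SE 0.12), Socs3, the feedback inhibitor of gp130 signaling, by 1.70 (SE 0.13), Junb, an AP-1 subunit, by 1.22 (SE 0.09), and Pde4b, a cyclic AMP phosphodiesterase, by 1.18 (SE 0.10, adjusted p = 0.0244).

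Il6 and Lif, ligands that share the receptor chain gp130, were far lower in the β-NMN hearts. Il6 (chr5:30013114-30019981, plus strand) had 67, 405 and 140 reads in vehicle hearts 1, 2 and 3 and 1, 5 and 4 reads in β-NMN hearts 1, 2 and 3, that is 1.03, 7.62 and 4.07 CPM against 0.0372, 0.0924 and 0.062 CPM. Lif had 114, 275 and 151 reads in the vehicle hearts and 5, 28 and 11 reads in the β-NMN hearts. Even the lowest vehicle heart, number 1, was above every β-NMN heart for both genes. The log2 difference was -5.92 (SE 0.87) for Il6 and -3.65 (SE 0.61) for Lif, and -5.17 and -3.34 without vehicle heart 2 (adjusted p = 0.109 and 0.148). Both genes were near the lower limit of these counts in the treated hearts, so the size of the difference rests on few reads there.

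Other cytokines were lower by less, or not separated. Il1rn, the interleukin-1 receptor antagonist, stood at 7.3, 7.83 and 5.03 CPM in the vehicle hearts and at 2.38, 1.33 and 2.29 CPM in the β-NMN hearts (log2 difference -1.75, SE 0.30). Il1b, the agonist of the same receptor, gave 1.71, 1.54 and 2.56 CPM against 0.968, 0.554 and 0.76 CPM (-1.35, SE 0.33). Csf1, which sustains macrophages, gave 86.7, 83.6 and 80.1 CPM against 56.3, 50.7 and 61.5 CPM (-0.57, SE 0.11). In these genes the groups did not overlap and vehicle heart 2 was not far from the other vehicle hearts. Il33, the alarmin of stromal cells, reached 85.4 CPM in vehicle heart 2, against 11.4 and 16.2 CPM in vehicle hearts 1 and 3 and 2.42 to 4.03 CPM in the β-NMN hearts, and its log2 difference went from -3.51 to -2.07 without that heart. Tnf was at 1.21 to 1.78 CPM in the vehicle and at 1.04 to 1.46 CPM in the β-NMN hearts, which overlapped (-0.21, SE 0.27, adjusted p = 0.705). Over the 23 cytokines tested, 17 were lower and 6 higher, 10 lower and 0 higher at an unadjusted p below 0.05, and 11 did not overlap, all lower, beside 7.63% of all genes lower at that p and 11.5% lower without overlap. The median was -0.68, and -0.46 without vehicle heart 2.

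The chemokines differed in the same direction. Ccl2, which draws monocytes, stood at 9.74, 26.3 and 20.3 CPM in the vehicle hearts and at 3.91, 4.4 and 5.37 CPM in the β-NMN hearts (log2 difference -2.04, SE 0.36). Ccl7, its neighbor on chromosome 11 with the same receptor, gave 6.44, 13 and 12.8 CPM against 2.61, 2.75 and 3.41 CPM (-1.87, SE 0.31). Ccl9, a macrophage chemokine, gave 28.8, 31 and 26.6 CPM against 16.9, 15.7 and 15.3 CPM (-0.85, SE 0.12). All vehicle hearts were above all β-NMN hearts for each. The neutrophil attractants Cxcl1, Cxcl2 and Cxcl5 varied more: Cxcl1 stood at 6.56, 47.5 and 14.4 CPM against 3.28, 1.44 and 2.93 CPM, and Cxcl5 at 0.784, 19.8 and 10.9 CPM against 0.186, 0.425 and 0.248 CPM. Vehicle heart 2 was the highest for each of them, and without it the log2 difference went from -3.17 to -2.05 for Cxcl1, from -2.48 to -1.72 for Cxcl2 and from -5.14 to -4.28 for Cxcl5. The macrophage chemokines Ccl3 and Ccl6 were lower by 1.48 (SE 0.27) and 0.99 (SE 0.18) on the log2 scale without overlap. Of 21 chemokines tested, 19 were lower, 15 of them at an unadjusted p below 0.05, and 14 did not overlap, beside 7.63% and 11.5% of all genes. The list's median was -1.41 (-1.03 without vehicle heart 2), and it was -0.94, -1.71 and -1.14 against vehicle hearts 1, 2 and 3 taken one by one.

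**Figure D2:**
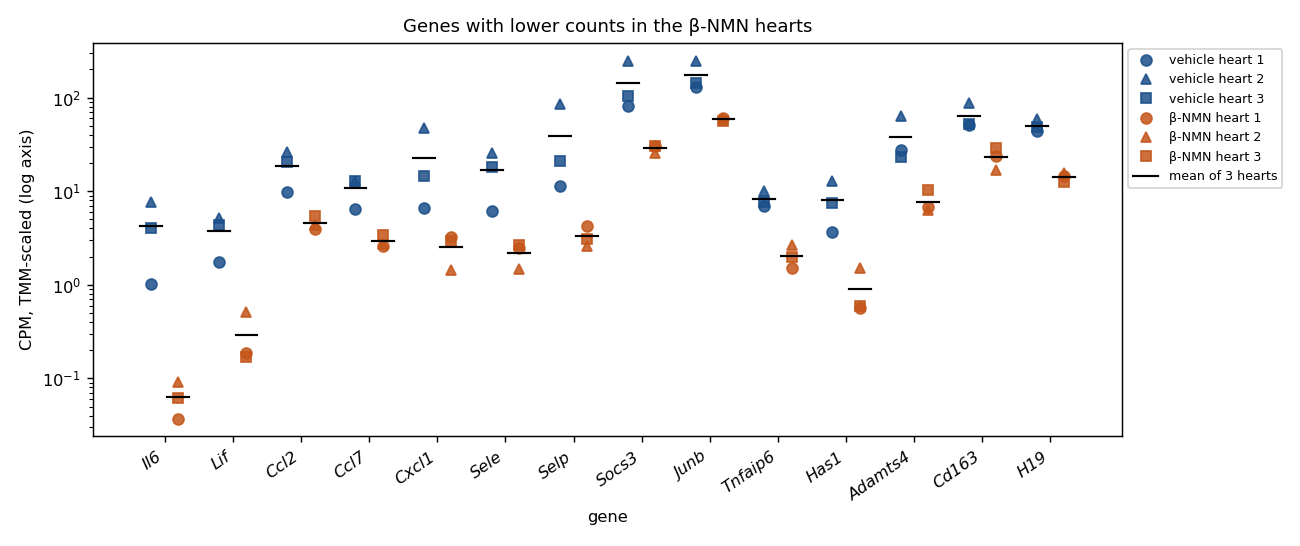
Level of 14 genes that were lower in the β-NMN hearts, in TMM-scaled CPM on a log axis; each point is 1 heart and the line is the mean of 3 hearts. No β-NMN heart reaches a vehicle heart for any of them; vehicle heart 2 is the highest for most, Selp (84.7 CPM) and Cxcl1 (47.5 CPM) among them, while the H19 values of the vehicle hearts lie together at 44 to 58.5 CPM.

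Genes downstream of gp130 and NF-κB were lower too, by less than Il6 and Lif. Socs3 stood at 82.3, 244 and 104 CPM in the vehicle hearts and at 30.3, 25.5 and 30.2 CPM in the β-NMN hearts (log2 difference -2.32, SE 0.41). Socs1, the related inhibitor of interferon signaling, gave 2.9, 5.94 and 2.82 CPM against 0.596, 1.44 and 1.4 CPM (-1.74, SE 0.45). Stat3 itself gave 528, 633 and 433 CPM against 280, 257 and 431 CPM, so that β-NMN heart 3 nearly reached vehicle heart 3 (-0.72, SE 0.25). The shared receptor Il6st (gp130) was at 297 to 409 CPM in the vehicle and at 293 to 327 CPM in the β-NMN hearts and did not separate them (-0.16, adjusted p = 0.643), and the IL-6 receptor Il6ra was lower by 0.71 (SE 0.24), which became -0.02 and -0.44 without vehicle heart 2. The repressor Bcl6, the receptor chain Il4ra and the phosphatase Ptpn2 were lower by 0.46, 1.23 and 0.90 without overlap, and without vehicle heart 2 the difference was -0.72 for Il4ra and -0.56 for Ptpn2. Of 18 genes of this pathway, 13 were lower, 9 at an unadjusted p below 0.05 and 10 without overlap, beside 7.63% and 11.5% of all genes, with a median of -0.46 (-0.29 without vehicle heart 2). Of 21 NF-κB subunits and feedback genes, 20 were lower, again 9 at an unadjusted p below 0.05 and 10 without overlap (median -0.52, and -0.25 without vehicle heart 2). Among them Tnfaip3, the deubiquitinase A20, stood at 16.7, 31.4 and 18 CPM against 9.53, 5.14 and 10.1 CPM (-1.42, SE 0.34), and Nfkbia, the inhibitor IκBα, at 97.3, 194 and 111 CPM against 87.6, 72.7 and 83.5 CPM (-0.72, SE 0.27, and -0.37 without vehicle heart 2). Nfkbie, Bcl3, Birc3 and the ribonuclease gene Zc3h12a were lower by 0.89, 1.36, 0.88 and 1.57, with vehicle heart 2 the highest for all of them; without that heart the values were -0.62, -0.76, -0.47 and -0.60.

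To show the sequence context of these genes, the 250 bases before the RefSeq start (GRCm38.p6, the patched form of the mm10 assembly) are given for the cytokine Il6 (chr5:30012864-30013113, plus strand), the feedback gene Socs3 (chr11:117969367-117969616, minus strand), the selectin gene Sele (chr1:164047984-164048233, plus strand) and the hyaluronan-binding gene Tnfaip6 (chr2:52037863-52038112, plus strand), each 5′ to 3′ along its gene. Capitals mark matches to an NF-κB motif (GGGANNTTCC), a STAT motif (TTCNNNGAA) or an AP-1 motif (TGANTCA), searched on both strands. The RefSeq starts of Socs3 and Tnfaip6 lie 681 and 104 bases downstream of the outermost GENCODE start.
Il6: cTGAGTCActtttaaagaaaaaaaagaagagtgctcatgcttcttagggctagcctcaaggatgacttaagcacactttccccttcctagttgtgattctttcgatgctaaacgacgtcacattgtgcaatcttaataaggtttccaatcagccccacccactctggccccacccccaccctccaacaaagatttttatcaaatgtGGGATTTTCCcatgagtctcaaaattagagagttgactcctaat
Socs3: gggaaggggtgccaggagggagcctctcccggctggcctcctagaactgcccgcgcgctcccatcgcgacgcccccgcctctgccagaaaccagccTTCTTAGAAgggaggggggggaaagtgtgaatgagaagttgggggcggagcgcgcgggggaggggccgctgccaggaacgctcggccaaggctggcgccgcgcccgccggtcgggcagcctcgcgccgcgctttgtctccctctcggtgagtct
Sele: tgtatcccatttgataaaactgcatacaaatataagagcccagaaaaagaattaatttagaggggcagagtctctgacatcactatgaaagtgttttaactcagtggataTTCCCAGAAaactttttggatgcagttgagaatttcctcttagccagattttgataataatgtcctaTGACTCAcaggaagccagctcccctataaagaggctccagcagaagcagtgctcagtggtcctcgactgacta
Tnfaip6: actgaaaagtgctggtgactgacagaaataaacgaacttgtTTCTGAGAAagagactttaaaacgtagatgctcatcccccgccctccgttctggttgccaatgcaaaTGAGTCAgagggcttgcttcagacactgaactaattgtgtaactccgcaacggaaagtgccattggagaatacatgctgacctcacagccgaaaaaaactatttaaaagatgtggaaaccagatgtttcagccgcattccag
In Il6 the NF-κB match lay 44 to 35 bases before the start and an AP-1 match at 249 to 243. Socs3 had a STAT match at 154 to 146, Sele a STAT match at 140 to 132 and an AP-1 match at 73 to 67, and Tnfaip6 a STAT match at 209 to 201 and an AP-1 match at 142 to 136. The same window of Junb held none of these letters. Of the 11631 tested genes with a promoter entry, 1.2% held the NF-κB motif, 5.94% the STAT motif and 4.64% the AP-1 motif. Of 14 chemokine genes with an entry, 3 held the NF-κB, 1 the STAT and 2 the AP-1 motif, and of 15 cytokine genes 2, 0 and 4 did. Of 10 genes of endothelial adhesion 0, 3 and 2 held them, of 23 immediate early genes 0, 1 and 0, and of 8 of the genes named as lower by the smallest p 0, 2 and 2. A match is only a run of letters and says nothing of whether a factor was bound in these hearts.

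Adhesion molecules of the activated endothelium were lower, whereas the summed markers of the endothelium itself were not. Sele, E-selectin, stood at 6.22, 25.6 and 18.2 CPM in the vehicle hearts and at 2.46, 1.46 and 2.64 CPM in the β-NMN hearts (log2 difference -2.94, SE 0.53). Selp, P-selectin, gave 11.5, 84.7 and 21.1 CPM against 4.25, 2.61 and 3.05 CPM (-3.58, SE 0.76, and -2.32 without vehicle heart 2). The integrin ligands Icam1 and Vcam1 were lower by 1.18 (SE 0.25) and 1.13 (SE 0.25), and the carrier of platelet adhesion Vwf by 0.85 (SE 0.24). Each β-NMN heart was below each vehicle heart in all of these genes. Of 16 genes of endothelial adhesion and activation, 13 were lower, 8 at an unadjusted p below 0.05 and 8 without overlap, where 7.63% and 11.5% of all genes were (median -0.90, and -0.52 without vehicle heart 2). The 8 endothelial markers summed to 994, 1000 and 952 CPM in the vehicle hearts and to 1020, 1200 and 1170 CPM in the β-NMN hearts. Of the 8, 5 were higher and 3 lower, 3 and 0 of them at an unadjusted p below 0.05, beside 3.68% and 7.63% of all genes (median 0.24, and 0.20 without vehicle heart 2). The 3 that were higher at that p were Tie1, Cdh5 and Egfl7, and the 3 that were lower were Pecam1, Emcn and Cldn5. Cdh5, VE-cadherin, was higher by 0.42 (SE 0.15). Tie1, an orphan receptor of endothelial cells, stood at 148, 125 and 147 CPM against 182, 194 and 212 CPM (0.49, SE 0.13), and Egfl7, a factor they secrete, at 68, 55.6 and 61 CPM against 69.7, 78.8 and 77.5 CPM (0.29, SE 0.12).

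In the coagulation list 16 of 18 genes were lower, 6 at an unadjusted p below 0.05 and 5 without overlap, beside 7.63% and 11.5% of all genes (median -0.38, and -0.30 without vehicle heart 2). Plaur, the urokinase receptor, stood at 8.3, 32.5 and 6.93 CPM in the vehicle and at 3.5, 3.53 and 4.03 CPM in the β-NMN hearts (log2 difference -2.11, SE 0.60, and -1.05 without vehicle heart 2). Pros1, the cofactor protein S, was lower by 0.50 (SE 0.14), while Thbd, thrombomodulin, overlapped at 109 to 132 CPM against 104 to 112 CPM (-0.16, adjusted p = 0.538). Platelet markers summed to 26.3, 29.6 and 13.6 CPM against 7.49, 12.8 and 7.46 CPM, so that the groups did not overlap, and Itga2b, the platelet fibrinogen receptor chain, gave 11.9, 8.58 and 5.18 CPM against 2.9, 4.92 and 2.9 CPM (-1.26, SE 0.36). Pf4, platelet factor 4, was lower by 1.39 (SE 0.41), and by 0.80 without vehicle heart 2. The share of platelet RNA in the coagulation list was not tested.

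All 28 immediate early genes tested were lower in the β-NMN hearts, 16 of them at an unadjusted p below 0.05 and 16 without overlap, where 7.63% and 11.5% of all genes were, with a median of -0.86. Without vehicle heart 2, 26 were lower, 16 of them at an unadjusted p below 0.05, where 5.94% of all genes were, and the median was -0.44. Junb (chr8:84974484-84978718, minus strand) stood at 129, 249 and 144 CPM in the vehicle hearts and at 60.6, 59.8 and 56.4 CPM in the β-NMN hearts (log2 difference -1.56, SE 0.26). Fos, the partner of JUN proteins in AP-1, gave 9.9, 19.8 and 9.25 CPM against 4.92, 5.78 and 2.88 CPM (-1.52, SE 0.38). The MAP kinase phosphatase gene Dusp2 gave 1.89, 4.66 and 2.15 CPM against 0.596, 0.425 and 1.01 CPM (-2.09, SE 0.49). Vehicle heart 2 was the highest heart for these genes, and the remaining vehicle hearts were still above all β-NMN hearts. Fosb and the orphan receptor gene Nr4a3 were lower by 1.29 (SE 0.31) and 1.03 (SE 0.25).

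Genes that build and bind hyaluronan, the large sugar polymer laid down in inflamed stroma, were lower. Tnfaip6, whose protein TSG-6 crosslinks hyaluronan, stood at 6.98, 10.1 and 7.74 CPM in the vehicle hearts and at 1.53, 2.66 and 1.97 CPM in the β-NMN hearts (log2 difference -2, SE 0.27). Has1, a hyaluronan synthase, gave 3.63, 12.8 and 7.51 CPM against 0.559, 1.53 and 0.589 CPM (-3.13, SE 0.60). Ptx3, a long pentraxin that joins the same matrix, gave 8.61, 153 and 15.7 CPM against 1.01, 2.05 and 1.55 CPM (-5.23, SE 1.2). Vehicle heart 2 set the size of the Ptx3 difference, which was -2.95 without it, but not its direction. Ugdh, which makes the sugar precursor, and the proteoglycan gene Vcan were lower by 1.35 (SE 0.32) and 1.41 (SE 0.34). Of 15 such genes 11 were lower, 8 at an unadjusted p below 0.05 and 8 without overlap, beside 7.63% and 11.5% of all genes (median -1.05, and -0.61 without vehicle heart 2).

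The metalloproteinases and their inhibitors followed, whereas few collagens did. Adamts4, an aggrecanase, stood at 27.3, 63.6 and 23.2 CPM in the vehicle hearts and at 6.74, 6.23 and 10.2 CPM in the β-NMN hearts (log2 difference -2.29, SE 0.43). Timp1, the inhibitor of matrix metalloproteinases, gave 28, 103 and 18.9 CPM against 6.67, 9.26 and 9.92 CPM (-2.53, SE 0.64, and -1.44 without vehicle heart 2). Adamts15, Mmp19 and Mmp8 were lower by 1.57, 1.05 and 0.89 without overlap, Adamts15 by 0.78 without vehicle heart 2. Of 17 genes of this list, 15 were lower, 11 of them at an unadjusted p below 0.05, and 10 did not overlap (median -0.95, and -0.49 without vehicle heart 2). Among 28 collagens and fibrillar matrix genes, 19 were lower, 2 of them at an unadjusted p below 0.05, which is near the 7.63% of all genes, and the median was -0.23 (-0.09 without vehicle heart 2). Col1a1 overlapped, at 155 to 293 CPM in the vehicle and 144 to 253 CPM in the β-NMN hearts (-0.35, SE 0.31, adjusted p = 0.586, and -0.16 without vehicle heart 2). The crosslinking enzyme gene Lox was lower by 1.58 (SE 0.54), but vehicle heart 2 held 128 CPM of it, against 41.9 and 28.1 CPM in vehicle hearts 1 and 3, and without that heart the difference was -0.67. Fibroblast markers summed to 1400, 2320 and 1130 CPM against 1050, 1390 and 932 CPM, with the highest sum again in vehicle heart 2 and overlapping groups.

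Markers of neutrophils, and most of those of macrophages, were lower in the β-NMN hearts. The neutrophil markers summed to 27, 27.3 and 44.4 CPM in the vehicle hearts and to 17.1, 16.1 and 20 CPM in the β-NMN hearts, which did not overlap, and 9 of 9 tested were lower, 6 at an unadjusted p below 0.05 and 6 without overlap, beside 7.63% and 11.5% of all genes (median -0.89, and -0.96 without vehicle heart 2). Ngp, neutrophilic granule protein, stood at 4.07, 4.57 and 5.85 CPM against 1.82, 1.44 and 2.79 CPM (-1.25, SE 0.30), and S100a8, a calprotectin subunit, at 5.49, 5.76 and 10.5 CPM against 4.06, 4.03 and 4.22 CPM (-0.82, SE 0.28). Csf3r, the G-CSF receptor, was lower by 0.79 (SE 0.22). The monocyte and macrophage markers summed to 407, 515 and 427 CPM against 362, 362 and 281 CPM. Among them Cd163, the hemoglobin scavenger receptor of resident macrophages, stood at 51, 86.8 and 52.4 CPM against 23.8, 17 and 28.7 CPM (-1.45, SE 0.28), and Mrc1, the mannose receptor, at 45.9, 61.2 and 29.1 CPM against 17.8, 16.1 and 17.1 CPM (-1.42, SE 0.26). Lyve1, Cd68 and Itgam, which encodes the CR3 integrin chain, were lower by 1.37, 0.53 and 0.52 without overlap, Lyve1 by 0.67 without vehicle heart 2. The macrophage markers named here are those with the smallest p of their list. Of the 12 macrophage markers 9 were lower, 6 at an unadjusted p below 0.05 and 6 without overlap (median -0.53, and -0.39 without vehicle heart 2). The other 3 were higher, 0 of them at that p. In bulk tissue, fewer cells of a type and less RNA per cell cannot be told apart. How far these cells bear on the chemokine, cytokine and complement values was not tested.

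Further genes named for their small p belong with leukocytes and platelets. Plek, pleckstrin, stood at 22.4, 17 and 16.6 CPM in the vehicle hearts and at 9.76, 9.89 and 9.88 CPM in the β-NMN hearts (log2 difference -0.93, SE 0.15). Pla2g7, which inactivates platelet-activating factor, gave 19.2, 20.8 and 17.3 CPM against 10.7, 8.61 and 10.5 CPM (-0.95, SE 0.14). C5ar1, the receptor of the complement fragment C5a, gave 16.3, 16.4 and 16.4 CPM against 11.8, 10.4 and 11.5 CPM (-0.54, SE 0.12). The vehicle hearts were close together for all of them, and vehicle heart 2 did not stand out. Of 15 complement genes 13 were lower, 6 at an unadjusted p below 0.05 and 6 without overlap, beside 7.63% and 11.5% of all genes, with a median of -0.65 that was -0.23 without vehicle heart 2.

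The interferon response showed a different order of hearts. Of 34 genes, 31 were lower, with 5 at an unadjusted p below 0.05 and 2 without overlap, where 7.63% and 11.5% of all genes were. The median was -0.56, and -0.62 without vehicle heart 2, but -0.26 without vehicle heart 3 and -0.92 without β-NMN heart 3. Zbp1, a sensor of left-handed nucleic acids, stood at 8.08, 10.5 and 17.2 CPM in the vehicle hearts and at 2.87, 2.88 and 8.34 CPM in the β-NMN hearts (log2 difference -1.33, SE 0.50). Irgm1, an immunity-related GTPase, gave 31.5, 39.2 and 44.9 CPM against 20.7, 18.9 and 33.8 CPM (-0.65, SE 0.25), and its relative Irgm2 was lower by 0.80 (SE 0.24). In each, number 3 was the highest heart of its group, so β-NMN heart 3 overlapped or came near vehicle heart 1. Igtp and Iigp1 were lower by 0.86 and 0.53, and since the exons of Igtp and Irgm2 overlap, reads could be split between them. None of the 18 genes of MHC class I and II presentation had an unadjusted p below 0.05, in either direction (median -0.08, and -0.05 without vehicle heart 2).

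Acute phase proteins were split in direction. Saa3, a serum amyloid made in tissues, stood at 749, 1650 and 520 CPM in the vehicle hearts and at 336, 213 and 313 CPM in the β-NMN hearts (log2 difference -1.76, SE 0.45). Lcn2, the siderophore-binding lipocalin, gave 745, 1780 and 420 CPM against 342, 212 and 413 CPM (-1.61, SE 0.54). Serpina3n, a protease inhibitor in a cluster of near-identical copies, gave 1250, 1930 and 658 CPM against 608, 447 and 564 CPM (-1.25, SE 0.38). Vehicle hearts 1 and 2 were well above the β-NMN hearts for these genes, while for Lcn2 vehicle heart 3 nearly met the highest β-NMN heart. Without vehicle heart 2 the differences were -1.15 for Saa3, -0.86 for Lcn2 and -0.83 for Serpina3n. Of 19 members 10 were lower and 9 higher, and 6 were lower at an unadjusted p below 0.05 (median -0.35, -0.01 without vehicle heart 2 and -1.88 without β-NMN heart 1), where 7.63% of all genes were lower at that level.

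The lowest p values over all genes were those of H19 and Fam122b, and vehicle heart 2 moved their log2 differences little, from -1.82 to -1.71 for H19 and from -1.75 to -1.63 for Fam122b. H19 (chr7:142575529-142578143, minus strand) stood at 44, 58.5 and 48.4 CPM in the vehicle hearts and at 14.5, 15.5 and 12.6 CPM in the β-NMN hearts. Fam122b (chrX:53243415-53269805, minus strand) gave 13.4, 17 and 13.8 CPM against 4.28, 4.08 and 4.81 CPM. In both genes the hearts of a group lay close together and far from the other group, and the adjusted p was 0.115 on all hearts. Of the imprinted growth genes, 14 of 18 were lower, 4 of them at an unadjusted p below 0.05, H19 itself among the 4, beside 7.63% of all genes (median -0.61, and -0.06 without vehicle heart 2). Phkg1, the catalytic subunit of phosphorylase kinase in muscle, stood at 62.2, 69.6 and 71.2 CPM against 39.7, 37.9 and 40.2 CPM (log2 difference -0.79, SE 0.11), and Rgs7, a regulator of G protein signaling, at 4.13, 5.1 and 4.07 CPM against 1.68, 1.79 and 1.92 CPM (-1.30, SE 0.20). Exons of 33 of the 128 genes chosen for naming overlap those of another gene, and of these 13 overlap a protein-coding gene on the opposite strand, Phkg1, Junb and Plek among them. Reads of such pairs may not be told apart, since the sources used here do not say whether counting used the strand.

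Fewer genes were higher than lower at an unadjusted p below 0.05. Cpxm2, a carboxypeptidase-like protein of the extracellular matrix, stood at 6.42, 5.87 and 6.14 CPM in the vehicle hearts and at 14.3, 14.2 and 11 CPM in the β-NMN hearts (log2 difference 1.09, SE 0.16). Insig1, which holds the sterol sensor of the SREBP pathway in the endoplasmic reticulum, gave 14.6, 15.3 and 17.1 CPM against 31.7, 30 and 21 CPM (0.82, SE 0.18). Neither gene overlapped between the groups, and without vehicle heart 2 the differences were 1.05 and 0.79, so that heart moved them little. The other genes with the smallest p were the stress-responsive kinase gene Plk2 (0.62, SE 0.11), Proser2 (0.82, SE 0.16), Tmem144 (0.69, SE 0.14), the transcriptional repressor gene Msc (1.37, SE 0.29), the G protein subunit gene Gnb3 (1.02, SE 0.22), Mllt11 (0.69, SE 0.15) and the carbonic anhydrase gene Car7 (1.36, SE 0.31), each without overlap.

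**Figure D3:**
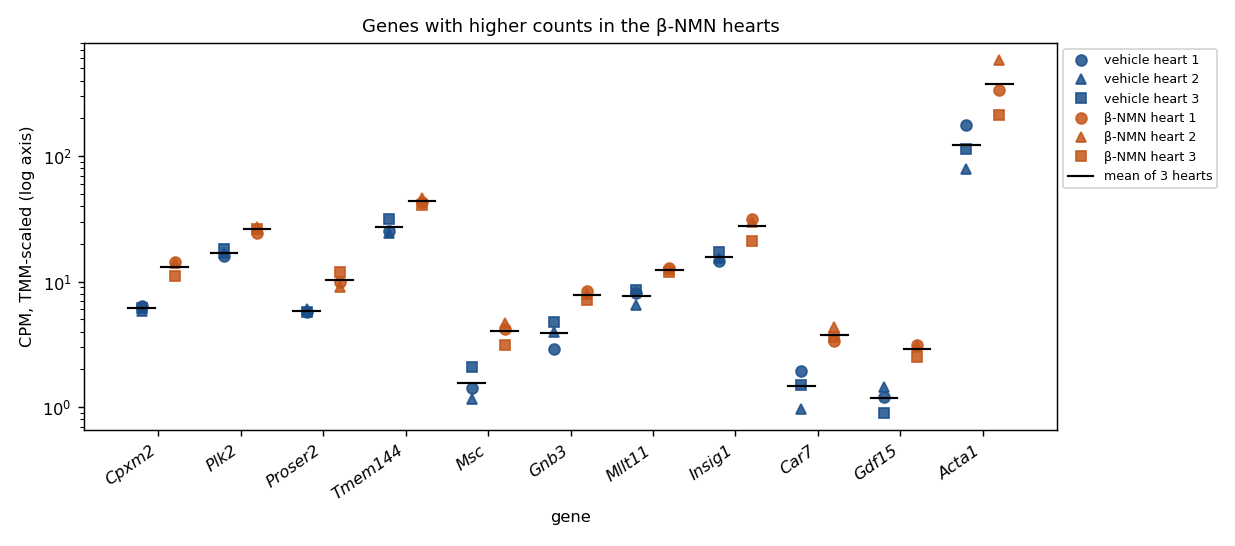
Level of 11 genes that were higher in the β-NMN hearts, in TMM-scaled CPM on a log axis; each point is 1 heart and the line is the mean of 3 hearts. The β-NMN hearts lie above the vehicle hearts for every gene, with the vehicle values of Cpxm2 (5.87 to 6.42 CPM) and Proser2 closest together and those of Acta1 (78.8 to 176 CPM) far apart.

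Stress and fetal genes of the cardiomyocyte went in both directions. Gdf15, a stress cytokine, stood at 1.21, 1.45 and 0.902 CPM in the vehicle hearts and at 3.13, 3.07 and 2.51 CPM in the β-NMN hearts (log2 difference 1.28, SE 0.26). Acta1, skeletal α-actin, gave 176, 78.8 and 113 CPM against 335, 580 and 212 CPM (1.62, SE 0.44), and Myh7, the slow myosin heavy chain, 114, 93.2 and 154 CPM against 157, 252 and 186 CPM (0.72, SE 0.25). Fhl1, a LIM protein of the sarcomere that senses stretch, gave 242, 268 and 185 CPM against 141, 150 and 149 CPM (-0.66, SE 0.16). Nppb, the gene of brain natriuretic peptide, varied widely within both groups, at 20.5, 225 and 68 CPM against 60.5, 151 and 142 CPM, and the groups overlapped (0.17, SE 0.79, adjusted p = 0.919, and 1.41 without vehicle heart 2). Of 18 genes of this list 8 were higher and 10 lower, 3 and 5 of them at an unadjusted p below 0.05, beside 3.68% and 7.63% of all genes, and the median of -0.23 became 0.12 without vehicle heart 2.

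Glucose-handling genes were mixed. Pfkfb2, the cardiac kinase that makes fructose 2,6-bisphosphate, stood at 25.1, 10.5 and 27.4 CPM in the vehicle hearts and at 53, 42.7 and 43.9 CPM in the β-NMN hearts (log2 difference 1.15, SE 0.34), while Pfkfb3, the inducible form, gave 29.5, 67.3 and 34.1 CPM against 24.8, 14.8 and 22.3 CPM (-1.08, SE 0.35). Neither gene overlapped between the groups, and vehicle heart 2 was the extreme heart of both, without which the difference of Pfkfb3 was -0.63. Slc16a3, the lactate exporter MCT4, gave 15, 18.3 and 10.8 CPM against 3.98, 6.21 and 6.88 CPM (-1.37, SE 0.27), and Vegfa, the endothelial growth factor, 146, 80.1 and 156 CPM against 205, 243 and 264 CPM (0.90, SE 0.26). In the list of glycolysis and HIF targets 21 of 30 genes were higher, 2 at an unadjusted p below 0.05, and 2 were lower at that level, where 3.68% and 7.63% of all genes were, so the list did not stand out from the background (median 0.18, and 0.12 without vehicle heart 2).

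Across all hearts the genes of oxidative metabolism were higher in nearly all cases, and the size of this rested on vehicle heart 2. All 23 genes of the TCA cycle and pyruvate dehydrogenase, all 37 of complex I and 18 of 19 of β-oxidation were higher in the β-NMN hearts, but 0 of each had an unadjusted p below 0.05, and medians were 0.29, 0.28 and 0.36 (0.07, 0.07 and 0.06 without vehicle heart 2). Without that heart 17 of 23, 28 of 37 and 16 of 19 were higher. Against vehicle heart 2 the medians of these lists were 0.91, 0.84 and 1.23. Against vehicle heart 1 they were 0.04, 0.06 and 0.06, and against vehicle heart 3 they were 0.09, 0.08 and 0.09. The 11 mitochondrially encoded genes were 0.14 higher with all hearts and -0.11 without vehicle heart 2, so the direction turned. Hadha, the trifunctional protein of β-oxidation, shows the pattern: it stood at 1580, 650 and 1550 CPM in the vehicle hearts and at 1710, 1920 and 1660 CPM in the β-NMN hearts (log2 difference 0.48, adjusted p = 0.530, and 0.16 without vehicle heart 2). Cpt1b, the muscle carnitine palmitoyltransferase, gave 9.42, 4.5 and 9.05 CPM against 7.34, 11 and 15.8 CPM and overlapped. Cpt1a, the 1 lower gene of the β-oxidation list, gave 73.7, 161 and 71.4 CPM against 50, 66.9 and 64.6 CPM without overlap (-0.75, SE 0.33, and -0.27 without vehicle heart 2). The uncoupling protein gene Ucp2, which is carried by immune cells as well as muscle, went the other way, at 445, 1320 and 419 CPM against 251, 226 and 265 CPM (-1.56, SE 0.46, and -0.81 without vehicle heart 2).

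Regulators of mitochondrial biogenesis were higher too, with a smaller median without that heart. Ppargc1a, the coactivator PGC-1α, stood at 72.6, 34.8 and 96.6 CPM in the vehicle hearts and at 112, 102 and 125 CPM in the β-NMN hearts (log2 difference 0.74, SE 0.34, adjusted p = 0.441). Its partner gene Esrra gave 150, 81.8 and 159 CPM against 180, 212 and 174 CPM (0.53, SE 0.26, adjusted p = 0.447), and the retinoid receptor gene Rxrg 28.8, 9.14 and 30.6 CPM against 48.5, 54.3 and 34.9 CPM (1.01, SE 0.44). Every β-NMN heart was above every vehicle heart in these genes, and without vehicle heart 2 the differences were 0.41, 0.28 and 0.62. Of the 17 regulators, 15 were higher, 0 at an unadjusted p below 0.05 and 7 without overlap, where 3.68% and 11.6% of all genes were. The median was 0.37 with all hearts, 0.62 without vehicle heart 3 and 0.16 without vehicle heart 2, when 5 were higher at an unadjusted p below 0.05, beside 4.41% of all genes.

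**Figure D4:**
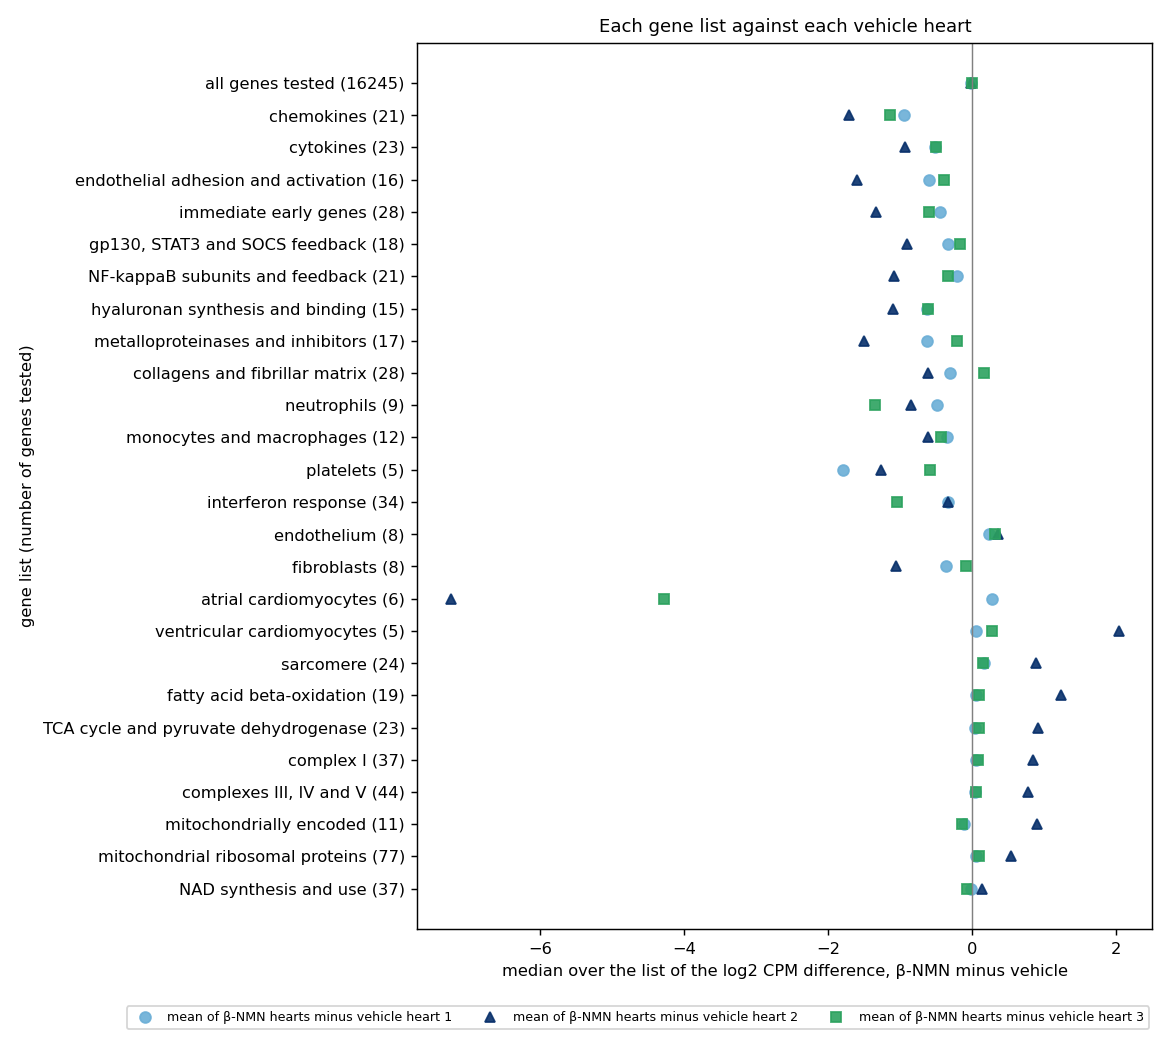
Median over each gene list of the log2 CPM difference between the mean of the β-NMN hearts and 1 vehicle heart, with all genes tested at the top; circles, triangles and squares stand for vehicle hearts 1, 2 and 3. The chemokine medians lie below 0 against every vehicle heart (-0.94, -1.71 and -1.14), while the sarcomere and oxidative lists lie far above 0 only against vehicle heart 2 and the atrial list spans 0.28 to -7.24.

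Contractile genes were also higher in most cases. Of 24 sarcomere genes, 22 were higher, 3 at an unadjusted p below 0.05 and 13 without overlap, where 3.68% and 11.6% of all genes were, with a median of 0.37 that was 0.15 without vehicle heart 2. Mybpc3, cardiac myosin-binding protein C, stood at 2090, 1230 and 2430 CPM in the vehicle hearts and at 3100, 2890 and 3190 CPM in the β-NMN hearts (log2 difference 0.67, SE 0.29), and Myom2, an M-band protein, at 671, 759 and 1340 CPM against 1580, 1450 and 1520 CPM (0.71, SE 0.29). Csrp3, the muscle LIM protein, was higher by 0.76 (SE 0.31), and without vehicle heart 2 the differences of Mybpc3 and Csrp3 were 0.43 and 0.50. All vehicle hearts were below all β-NMN hearts for these genes, vehicle heart 3 being close to the β-NMN hearts for Myom2. Kcnk3, the potassium channel TASK-1, gave 243, 111 and 287 CPM against 381, 482 and 309 CPM (0.87, SE 0.36, and 0.55 without vehicle heart 2). Medians were 0.14 over 18 calcium handling genes, 0.23 over 21 ion channels and 0.14 over 20 genes of adrenergic and muscarinic signaling. Without vehicle heart 2 they were 0.05, 0.02 and 0.09. At an unadjusted p below 0.05 these lists held 0, 1 and 0 higher genes and 0, 1 and 2 lower genes. Beside 3.68% and 7.63% of all genes, the lists did not stand out from the background. The 2 lower genes of the last list were those of the phosphodiesterases Pde4b and Pde4d. Pde4b (chr4:102087543-102607259, plus strand) stood at 55.6, 207 and 52.3 CPM in the vehicle hearts and at 22, 24.9 and 24.8 CPM in the β-NMN hearts (-2.13, SE 0.55, and -1.18 without vehicle heart 2), and Pde4d was lower by 0.35 (SE 0.12).

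The genes of NAD synthesis and use, on which β-NMN acts as a substrate, were split in direction. Of 37 tested, 17 were higher and 20 lower, 1 and 4 of them at an unadjusted p below 0.05, where 3.68% and 7.63% of all genes were, so the list did not stand out from the background (median -0.03, and -0.04 without vehicle heart 2). Nampt, the rate-limiting enzyme of the salvage pathway that makes NMN, stood at 238, 132 and 257 CPM in the vehicle hearts and at 238, 207 and 231 CPM in the β-NMN hearts, which overlapped (log2 difference 0.11, SE 0.25, adjusted p = 0.833, and -0.14 without vehicle heart 2). Bst1 and Cd38, the neighboring genes of the NAD glycohydrolases on chromosome 5, were lower: Bst1 stood at 13.6, 14 and 13.6 CPM against 8.45, 5.43 and 8 CPM (-0.91, SE 0.19) and Cd38 at 26, 30.5 and 28 CPM against 18.4, 14.9 and 23.3 CPM (-0.58, SE 0.18). The vehicle hearts were close together and above all β-NMN hearts for both, and the differences were -0.91 and -0.52 without vehicle heart 2. Nmrk2, the nicotinamide riboside kinase of muscle, gave 8.07, 11.1 and 8.5 CPM against 5.73, 2.92 and 6.73 CPM (-0.85, SE 0.32), and Sirt4, a mitochondrial sirtuin, 11.5, 8.54 and 9.25 CPM against 12.3, 13.1 and 12.9 CPM (0.39, SE 0.15). Bst1 and Cd38 are carried by leukocytes. Markers of neutrophils and most of those of macrophages were also lower, while B cell marker sums overlapped between the groups. The part of leukocytes in these values was not tested.

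Lungs of the same mice were used to ask whether a difference was that of the heart. In a fit of both organs with a term for the difference between them, 0 of 18318 genes passed an adjusted p of 0.05 (lowest adjusted p = 0.948), and 498 (2.72%) had an unadjusted p below 0.05. Vehicle lung 2 stood far apart for some genes, with Nfkbia at 5990 CPM against 573 and 513 CPM in vehicle lungs 1 and 3, and Lyve1 at 4150 CPM against 372 and 208 CPM, and lung values rest in part on it. The log2 difference between treatments in lung was -1.2 for Il6, where vehicle lungs held 0.497 to 1.01 CPM and β-NMN lungs 0.183 to 0.425 CPM, and the heart differed from the lung by -4.34 (SE 0.92, unadjusted p = 0.00182). H19 was at 0.144 to 1.05 CPM in the lungs of both groups, and Fam122b, at 4.68 to 6.65 CPM in vehicle and 4.84 to 6.92 CPM in β-NMN lungs, differed there by 0.09. Junb stood at 248, 650 and 225 CPM in the vehicle lungs, the highest again number 2, and at 153, 102 and 202 CPM in the β-NMN lungs (-1.29, SE 0.49, adjusted p = 0.969), and the organs differed by -0.34 (unadjusted p = 0.38). Of the named genes whose hearts did not overlap and were lower, 17 were also lower without overlap in lung, 66 overlapped there and 2 were higher, where 3.75% of the 17008 genes tested in lung were lower without overlap and 4.47% higher. Ccl7, Ccl3, Cxcl2 and Cxcl5 were among the 17, with lung differences of -1.21, -1.9, -1.67 and -2.74, as were Il1b (-0.94), Socs1 (-1.17), Selp (-1.2) and Adamts4 (-1.78), each with an adjusted p of 0.969 in lung. Has1 had a small p for the difference between organs, its heart and lung differing by -3.36 (SE 0.52, unadjusted p = 0.000276). Ptgs2, the inducible cyclooxygenase, named after its values were seen, stood at 3.84, 13.1 and 6.58 CPM in vehicle and 1.6, 0.739 and 0.605 CPM in β-NMN hearts, while in lung it differed by 0.03. None of these differences between organs passed the adjusted test.

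Traces of gut transcripts were higher in β-NMN hearts 1 and 3, from a list of 12 intestinal epithelium genes added after the data were seen. They summed to 0.722, 1.98 and 0.582 CPM in the vehicle hearts and to 19.5, 3.14 and 8.53 CPM in the β-NMN hearts. Clca4b, a gene of the intestinal epithelium, had 0, 5 and 0 reads in the vehicle and 98, 2 and 112 reads in the β-NMN hearts, and Fcgbp, a mucus protein gene, 0, 19 and 0 against 89, 6 and 92 reads. β-NMN hearts 1 and 3 held most of these reads. In β-NMN heart 2 the gene Aqp8 alone gave 2.07 of the 3.14 CPM. Lung epithelium markers lay at 1.16 to 2.78 CPM in the vehicle and at 0.968 to 2.28 CPM in the β-NMN hearts. Whether these traces touch any other value was not tested.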

How the data were processed

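RNA of hearts was sequenced after poly(A) selection. The authors deposited whole-number read counts for 54658 gene symbols, without normalization. Per the labels, reads were aligned with STAR 2.7.3a to mm10 and counted with featureCounts 2.0.0, while the annotation and strand setting were not given in the sources used here. Of 16245 tested symbols, 16195 were found in GENCODE M21, from which positions were taken, and promoter sequences come from RefSeq (GRCm38.p6).

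A model of the 6 hearts without the lungs was made in edgeR 4.0.16 (R 4.3.3) after filterByExpr and TMM scaling. Treatment was tested by quasi-likelihood (the legacy form) and p-values were adjusted after Benjamini and Hochberg, with a threshold of 0.05. Log2 CPM used a prior count of 2. The atrial score was compared with an exact permutation test. With 27319513 to 68523239 counts per heart, counting error is small except for genes of few reads, and 3 animals per group limit the precision.

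The members and gene lists were chosen with earlier results of these data known. Genes named were the 4 atrial genes, the 10 lower and 10 higher genes with the smallest p that had separate groups and averaged 1 or more in log2 CPM, up to 5 genes with the smallest p of each list discussed with its defining members, and the most abundant markers. Ptgs2 was added after its values were seen. A few genes that this rule selects are not reported here. The fit was repeated in DESeq2 1.42.0, in limma-voom (limma 3.58.1, with quality weights), and in edgeR with the robust or newer form, with size factors for TMM, without the filter, with the atrial score as a covariate, with a block for the replicate number, with lungs included, and without each heart in turn. DESeq2 without vehicle heart 2 and vehicle heart 1 alone were added after the data were seen. Of these fits, only the edgeR quasi-likelihood fit of the hearts was tested on simulated data.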

Additional observations from a re-analysis of the deposited data

Results flagged for a closer look

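In 3 named genes every β-NMN heart lay on one side of every vehicle heart while the lungs of the same mice lay on the other side, and the difference between the organs was tested in a joint fit. Of the 87 named genes lower without overlap in heart, 2 were higher without overlap in lung, where 4.47% of the genes tested there were. Of the 26 named genes higher in heart, 1 was lower in lung, where 3.75% were. These counts did not stand out from the background. None passed the adjusted test (adjusted p = 0.948 for each).

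Il33, the stromal alarmin, was lower in the β-NMN hearts by 3.51 on the log2 scale and higher in the β-NMN lungs by 0.68, at 33.3, 46.3 and 31.9 CPM against 17.2, 22.4 and 29.8 CPM, a difference of -3.6 between heart and lung (SE 0.76, unadjusted p = 0.00183). Fhl1, the LIM protein, differed by -0.66 in heart and by 0.64 in lung, a difference of -1.28 (SE 0.44, unadjusted p = 0.021). Mybpc3, cardiac myosin-binding protein C, differed by 0.67 in heart and by -2.18 in lung, a difference of 2.66 (SE 1.01, unadjusted p = 0.032). In lung Mybpc3 stood at 3.17, 15.3 and 3.02 CPM in the vehicle and at 0.975, 2.94 and 0.697 CPM in the β-NMN samples. The atrial gene Myl7 moved with it there, at 27.9, 131 and 34.1 CPM against 13.6, 28.6 and 9.43 CPM, with vehicle lung 2 the highest for both, and the part of heart muscle in the lung values was not tested.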

How the results depend on the processing

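The count of genes with an adjusted p below 0.05 was 0 with all hearts and 3 without the low-count filter, 3 with limma-voom, 262 with DESeq2, 410 with DESeq2 and vehicle heart 2 left out, and 0 to 5 when each heart was left out in turn, with the 5 found without vehicle heart 2. Genes lower at an unadjusted p below 0.05 numbered 2063 without the filter, 335 with the atrial score as a covariate, 791 against vehicle heart 1 alone (a fit that takes the spread from the β-NMN hearts and assumes that the lone vehicle heart varies like them) and 620 to 1843 with a heart left out. Genes higher at that level numbered 1177 with limma-voom, 193 with the covariate, 258 with both organs in one fit and 229 to 878 with a heart left out. With a heart left out, genes without overlap were 2324 to 3175 lower and 2394 to 3134 higher, the atrial score differed by -6.19 to -1.92, and 0 to 2 genes were called for the difference between organs.

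With each heart left out in turn, list medians ranged from -0.47 to 0.12 for wall stress and fetal genes, from -0.11 to 0.32 for mitochondrially encoded genes, from 0.02 to 0.41 for ion channels, from 0.06 to 0.56 for β-oxidation, from 0.07 to 0.45 for the TCA cycle and from -0.13 to 0.07 for NAD genes.

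The replicate numbers did not pair the hearts (correlations of deviations 0.24, 0.18 and 0.07), and with the replicate number as a block 0 genes were called, with a lowest adjusted p of 0.221. Of the 128 genes chosen for naming 0 turned direction with the block, the size factors of DESeq2, no filter, DESeq2 or both organs in one fit. Against vehicle heart 1 alone Myl7 (1.94), Myl4 (1.47), Sln (2.7), Nppa (2.19), Tnf (0.05), Il6st (0.05) and Nampt (-0.09) turned. With the covariate Sln (0.18), Nppa (0.45) and Nampt (-0.08) did, and with limma-voom Nppa (0.09) and Nampt (-0.09). Nampt was -0.14 without vehicle heart 2 by either tool, and ranged from there to 0.29 with other hearts left out. Nppb was -0.31, -0.05 and -0.04 without vehicle heart 1, vehicle heart 3 and β-NMN heart 2, and reached 1.41 without vehicle heart 2. The cause was not tested.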

Other observations

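Genes under glucocorticoid control, the steroid hormones of the stress response, were lower in 17 of 21 cases, 7 of them at an unadjusted p below 0.05 and 9 without overlap, where 7.63% and 11.5% of all genes were (median -0.28, and -0.21 without vehicle heart 2). The metallothionein genes Mt1 and Mt2, which buffer zinc and respond to both glucocorticoids and cytokines, were among them. Mt1 stood at 1110, 1990 and 1000 CPM in the vehicle hearts and at 635, 628 and 743 CPM in the β-NMN hearts (log2 difference -1.03, SE 0.29), and Mt2 at 59.6, 156 and 49.2 CPM against 20.7, 25.2 and 32.9 CPM (-1.75, SE 0.46). Cebpd, a transcription factor of the acute phase response, gave 92.2, 201 and 98.6 CPM against 59, 51.3 and 61.3 CPM (-1.19, SE 0.31). No β-NMN heart reached a vehicle heart in any of them, and without vehicle heart 2 the differences were -0.67 for Mt1, -1.05 for Mt2 and -0.75 for Cebpd.

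The counts that follow stand beside 7.63% of all genes lower and 3.68% higher at an unadjusted p below 0.05, and 11.5% lower without overlap. Ubiquitin ligases and autophagy genes of muscle atrophy were higher in 15 of 18 cases, 2 at an unadjusted p below 0.05 (median 0.25, and 0.07 without vehicle heart 2). Heat shock and chaperone genes had 0 of 25 at that level, with a median of -0.01 (-0.05 without vehicle heart 2). Of the integrated stress response 14 of 21 genes were lower, 4 of them at an unadjusted p below 0.05 and 4 without overlap, with a median of -0.54 that was -0.02 without vehicle heart 2. Antioxidant and iron genes had 4 of 22 lower at that level (median -0.13 with and without that heart). Of 20 cell cycle genes, 1 was lower at that level and 5 without overlap (median -0.36, and -0.05 without vehicle heart 2). Of 19 circadian clock genes 1 was lower at that level (median -0.18, and -0.08 without vehicle heart 2). Cytosolic ribosomal proteins had a median of -0.07 over 81 genes and mitochondrial ribosomal proteins 0.21 over 77, and these were 0 and 0.06 without vehicle heart 2.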
